A study of Daphnia magna with 36 samples.

Results

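A set of 150 array probes of the water flea Daphnia magna had log2 ratios that were shifted in animals exposed to silica nanoparticles (SiO2 NP) at the higher of 2 levels and small in both zinc groups at that level. They are called members here. They were selected on the measured ratios of 3 groups at the LC25, the concentration that kills 25% of animals. Arrays of one exposure were averaged, each probe's median over exposures was taken per group, and probes needed a value in at least 3 exposures of all 3 groups. Of 7680 probes, 5664 met that condition, and 683 of these had an absolute median of at least 0.2 under SiO2 NP and under 0.2 under both zinc oxide nanoparticles (ZnO NP) and zinc sulphate (ZnSO4). The 150 with the largest absolute SiO2 NP median were kept, 59 positive members and 91 negative members by the sign of that median. The 5664 probes are called all probes below and serve as the background, counted where they had a value. Where the choice was repeated or a test was run, the background is instead the probes valued or tested in that setting.

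The study set exposed adult females, 10 days old, against unexposed laboratory animals of the same culture on 36 arrays with 2 colours, one dye (Cy5 or Cy3) for each RNA. Each RNA sample was drawn from 16 pooled whole animals after 24 h at 25 °C, so tissues cannot be told apart, and neither can fewer cells of a type and less RNA per cell. SiO2 NP were given at 1.4 mg/L, which is 1/10 of the LC50 (the concentration that kills 50% of animals), and at 5.1 mg/L, the LC25. ZnO NP were given at 2.2 and 9 mg/L, and ZnSO4, a soluble salt that releases zinc ions, at 0.13 and 0.91 mg/L, for the same levels of toxicity. Each group had 6 arrays, which came from 3 and 4 exposures for SiO2 NP at the lower and higher level, 4 and 4 for ZnO NP, and 3 and 5 for ZnSO4. Of the 23 exposures, 13 had a dye-swapped pair of arrays and 10 a single array. The sources used here do not give the numerator of the ratios, which are therefore called positive or negative and never read as induction or repression.

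Daphnia are filter feeders that take particles of many sizes from the water into the gut, and toxicologists use them as a standard animal for pollutants in fresh water. Zinc oxide particles shed zinc ions in water, and those ions are toxic to crustaceans by themselves. Amorphous silica dissolves slowly and sheds no toxic metal, which makes it a usual comparison particle for effects of the particle form. Probes carry plate positions as names, 0 of them matched the gene table used here, and no gene, pathway or sequence is therefore attached to any member.

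At the LC25 of silica the choice itself fixes the picture, and the values are a description with no test. The members had a median absolute log2 ratio of 0.39 (1.31-fold) under SiO2 NP, against 0.15 over all probes. The smallest was 0.344691 and the first candidate left out had 0.344045, so no gap separates members from the other candidates. The largest was 1.27 (2.41-fold), and the one after it 0.63. A total of 559 probes reached the members' lowest SiO2 NP value, and 409 of these were no members because a zinc group also reached 0.2. The closest of the 409 had a zinc median of 0.20044, and the closest member one of 0.19921. An absolute median of at least 0.2 was found for 2055 probes under SiO2 NP, 2364 under ZnO NP and 1985 under ZnSO4.

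Members kept one sign across the silica exposures more often than all probes, as the rule favours. In the 4 SiO2 NP exposures at the LC25, the median over the positive members was 0.35, 0.41, 0.32 and 0.48, or 0.39 ± 0.070 (mean ± SD, n = 4). The negative members had medians of -0.31, -0.41, -0.37 and -0.43, or -0.38 ± 0.054 (SD, n = 4). All probes together lay between -0.0072 and 0.011. The medians of both sets lay apart in each silica exposure, as the selection requires, while single members crossed. In exposure 1, 10 of 58 positive members with a value were negative and 19 of 85 negative members were positive. Of the 150 members, 100 had one sign in every SiO2 NP exposure with a value, against 28.6% of all probes. Values were present in all 4 exposures for 129 members.

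Values of the 2 members of each sign at the ends of the selection follow. P4DF5 had values of 0.29, 1.27, 0.96 and -0.19 in the 4 SiO2 NP exposures at the LC25. P4DE8 had 0.12, 0.52, 0.70 and 0.69. A7A19, with the most negative median of all members, had -1.69, -1.27 and 0.20 and no value in exposure 4. Thus P4DF5 and A7A19 each had an exposure with the opposite sign. A4C9 had -0.80, -0.45, -0.41 and -0.71, all negative.

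In the zinc groups the same probes varied widely between exposures. P4DF5 ranged from -0.62 to 0.44 under ZnO NP at the LC25 and from -1.32 to 0.67 under ZnSO4. A7A19 ranged from -1.30 to 0.73 under ZnO NP and from -0.63 to 0.18 under ZnSO4. P4DE8 reached -1.06 and 0.66 under ZnO NP and stayed between -0.06 and 0.23 under ZnSO4. Silica values of P4DF5, P4DE8 and A7A19 overlapped with those of the zinc exposures. A4C9 spanned -0.54 to 0.44 under ZnO NP and -0.16 to 0.53 under ZnSO4, so 1 ZnO NP exposure fell within its silica range and no ZnSO4 exposure did.

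Small zinc medians stood beside large values of both signs in single exposures. The median SD between exposures over the members was 0.29 on the log2 scale under ZnO NP at the LC25 and 0.35 under ZnSO4, against 0.24 under SiO2 NP. Over all probes the SDs were 0.27, 0.32 and 0.22. Only 4 of the 150 members (2.67%) had one sign in every ZnSO4 exposure with a value, against 9.13% of all probes, and 19 (12.7%) did under ZnO NP, against 28.0%. A cutoff on the zinc medians favours such mixed signs, so these shares are a property of the choice.

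In single zinc exposures at the LC25 the medians of both sets lay on either side of 0. Under ZnSO4 at the LC25, the positive members' median was -0.14, -0.05, 0.24, 0.17 and -0.26 in exposures 1 to 5. The negative members' median was 0.08, 0.21, -0.19, -0.12 and 0.16 in the same order, and all probes lay between -0.075 and -0.022. Relative to all probes, exposures 3 and 4 showed the silica directions in both sets, and exposures 1 and 5 the opposite ones. In exposure 2 the positive members were close to all probes (-0.043), and the negative members lay above them. Under ZnO NP, the positive members' median was -0.0065, 0.06, 0.08 and 0.10, and the negative members' median was 0.17, -0.08, -0.04 and -0.28. All probes lay between -0.019 and 0.017. Exposures 2 to 4 of ZnO NP showed the silica directions, and in exposure 1 the positive members were close to all probes (0.0032) and the negative members above them. The label of probes shifted by silica alone thus holds for group medians, and not for single zinc exposures.

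Values that did not take part in a choice were obtained by choosing probes again without 1 exposure and reading them in the exposure left out. Without SiO2 NP exposure 1, 65.0% of the probes chosen as positive and 57.5% of those chosen as negative had that sign there, against 50.6% and 49.4% of all probes. The shares were 84.2% and 85.7% in exposure 2, 68.8% and 73.3% in exposure 3, and 72.9% and 76.7% in exposure 4. All 4 silica exposures were above the shares of all probes in both signs, and exposure 1 was the closest to them. Whether the exposure left out shared unexposed RNA with the others is not given. Sizes were smaller than the members' medians. For probes chosen as positive, the median in the exposure left out lay at 0.11, 0.19, 0.14 and 0.28, and for those chosen as negative at -0.08, -0.22, -0.14 and -0.26. Exposures 2 and 4 were single arrays with exposed RNA in Cy5, and exposures 1 and 3 were dye-swapped pairs. Of the 150 members, 89, 76, 80 and 89 were chosen again without exposures 1, 2, 3 and 4.

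Zinc exposures left out in the same way gave shares on both sides of those of all probes. Low shares came from ZnSO4 exposures 1, 2 and 5. In exposure 5, 27.1% of probes chosen as positive and 30.6% of those chosen as negative had the silica sign, against 42.6% and 57.4% of all probes. In exposure 1 the shares were 37.8% and 28.6%, against 44.2% and 55.8%. The highest came from ZnSO4 exposure 3, with 78.6% and 93.6%, against 46.7% and 53.3%. Of 9 zinc exposures, 6 were above all probes for the positive sign and 5 for the negative. Probes chosen without a zinc exposure thus had shifts in that exposure that were toward the silica direction in some and away from it in others.

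SiO2 NP at 1/10 LC50 was the first measure of the members in samples the rule did not use, and asks whether the shifts appear at the lower silica level. The positive members' median was 0.028, -0.028 and -0.028 in the 3 exposures, or -0.0092 ± 0.032 (mean ± SD, n = 3). The negative members' median was -0.024, 0.000245 and 0.099, or 0.025 ± 0.065 (SD, n = 3), and all probes lay between 0.00024 and 0.0043. Exposure 1 had the LC25 directions and exposure 3 the reverse of both, so the sets overlapped and neither stood off 0 by more than its spread. This holds for ratios read as already turned to one direction. The sources used here do not exclude a reading as Cy5 over Cy3 on every array. Read so, the same probes had medians of 0.13 ± 0.086 (SD, n = 3) in the positive and -0.10 ± 0.062 in the negative set. These lay beyond the spread, on the sides of the LC25 signs, which were set with ratios read as already turned. The LC25 values change too under that reading, where the rule kept 29 of the 150 members. These medians therefore cannot show whether the LC25 shifts appear at the lower level. By probe median, 22 of 59 positive members were positive and 37 negative, whereas 53 of 86 negative members with a value were positive and 33 negative. Over all probes 51.0% were positive.

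No member passed the test at the lower silica level. In the limma fit over all 6 groups, 138 of the 150 members had enough values to be tested, and 0 of them had an adjusted p below 0.05, where 0% of the 5495 probes tested did. At an unadjusted p below 0.05 the count was 0 of 138, against 0.819% of probes tested. The median 95% confidence interval of a member's ratio extended 0.33 to each side before any adjustment for the number of probes, so only larger ratios could pass the adjusted threshold. The same fit covers the LC25 silica values that selected the members, so its counts there are no test of them and nothing is read from them: 0 of 138 had an adjusted p below 0.05 (0% of probes tested) and 75 an unadjusted p below 0.05 (9.65%).

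The members named at the lower silica level are the 2 of each sign with the largest fitted ratio among the 138 tested that had one sign in every exposure. A3D1, a negative member that had too few values for the fit and is named after its values were seen, had 1.33, 0.33 and 0.39, larger than any of them. The highest median of a positive member at this level was 0.56, which has the LC25 sign, and that of a negative member was 0.39. The positive member with that median is not among those named. A6E22, a negative member at the LC25 with a median of -0.38, had 0.13, 0.29 and 0.31 at 1/10 LC50. P1AD1, with a median of -0.46 at the LC25, had 0.25, 0.21 and 0.21. P13CD5, with a median of 0.45 at the LC25, had -0.39, -0.01 and -0.32. All 3 had the opposite sign at the lower level, in every exposure. A7A19 had -0.85, -0.01 and -0.49, the sign it had at the LC25. The fitted log2 ratios ± SE were 0.25 ± 0.14 for A6E22, 0.22 ± 0.12 for P1AD1, -0.24 ± 0.19 for P13CD5 and -0.45 ± 0.31 for A7A19, each with a limma adjusted p of 0.999761.

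The zinc groups at 1/10 LC50 gave no called member either. Under ZnO NP, 0 of 138 members had a limma adjusted p below 0.05 (0% of probes tested) and 3 had an unadjusted p below 0.05 (4.79%). Under ZnSO4, 0 members were called (0.0182% of probes tested, which is 1 probe and no member) and 1 member had an unadjusted p below 0.05 (2.13%). Under ZnO NP, the positive members' median was 0.077, 0.036, -0.17 and -0.096 in the 4 exposures, or -0.039 ± 0.12 (SD, n = 4), and the negative members' median averaged 0.035 ± 0.10. Under ZnSO4, the positive members' median was 0.18, -0.014 and 0.027, or 0.065 ± 0.10 (SD, n = 3), and the negative members' median averaged 0.013 ± 0.087. In both groups and both sets the spread between exposures exceeded the mean. Exposures 3 and 4 of ZnO NP, where the positive members were lowest, were single arrays with exposed RNA in Cy3. By probe median, positive members were positive in 31 and negative in 26 cases under ZnO NP, and in 35 and 23 cases under ZnSO4. Negative members were positive in 47 and negative in 36 cases under ZnO NP, and in 46 and 38 cases under ZnSO4. The positive shares under ZnO NP and ZnSO4 were 54.4% and 60.3% in positive members and 56.6% and 54.8% in negative members. Of all probes, 51.6% and 57.1% were positive, so the negative members' share was above that of all probes under ZnO NP and below it under ZnSO4.

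Under zinc at 1/10 LC50 members were named by the same rule, which ranks fitted ratios with the dye term and not plain means. By plain mean under ZnO NP, P8AH10 (0.45) was above A4B2 and A6F1, and P4DE5 (-0.35) was further from 0 than P8BF5. A4B2 had ZnO NP values of 0.88, 0.15 and 0.16 and none in exposure 3. A6F1 had 1.01, 0.13, 0.32 and 0.16 under ZnO NP and 0.07, 0.85 and 0.14 under ZnSO4. P8BF5 had -0.16 in 3 ZnO NP exposures and -0.37 in the other. In A4B2 and A6F1, a single exposure lay far above the others. Under ZnO NP A7A19 averaged -0.38 ± 0.28 (SD, n = 4). The limma adjusted p of A4B2, A6F1, P8BF5 and A7A19 under ZnO NP was 0.996 each. Under ZnSO4, P4DE5 had 0.28, 0.50 and 0.71, and P1BB3 -0.58, -0.52 and -0.03. Each P1BB3 value averaged a pair of arrays with opposite signs. Its arrays with exposed RNA in Cy5 had 0.03, 0.33 and 0.09, and those in Cy3 -1.19, -1.36 and -0.15. A4C9 had -0.30, -0.42 and -0.33, negative as under silica at the LC25, and its limma adjusted p was 0.999759, as for P4DE5, P1BB3 and A6F1.

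Silica was then set against each zinc form at 1/10 LC50, which asks whether the members separate the toxicants in samples that did not choose them. Both comparisons use the same SiO2 NP exposures. Against ZnO NP, 0 of 138 members had a limma adjusted p below 0.05 (0% of probes tested) and 3 an unadjusted p below 0.05 (1.82%). Against ZnSO4, the counts were 0 (0% of probes tested) and 2 (1.35%). The members' median difference was 0.0049 for SiO2 NP minus ZnO NP and -0.020 for SiO2 NP minus ZnSO4, with 0.0015 and -0.016 over all probes tested. A member's 95% interval extended 0.46 and 0.47 to each side in the median, so differences of the size of most members' silica medians could not be told from 0 in a single probe even before adjustment.

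The largest differences in these 2 comparisons were those of P8AH10 and P4DE5. P8AH10 had -0.91, -0.49 and 0.06 under SiO2 NP and 0.16, 0.90, 0.44 and 0.29 under ZnO NP. Its silica values all lay below its ZnO NP values, but these groups had different dye orientations for this probe. Silica exposures 1 and 2 were valued on Cy5 arrays alone and ZnO NP exposures 2, 3 and 4 on Cy3 arrays alone. Its one silica value from a Cy3 array was 0.63, within the range of its ZnO NP values on Cy3 arrays, from 0.24 to 0.90. On Cy5 arrays its silica values were -0.91, -0.49 and -0.51, all below its one ZnO NP value of 0.07. The part of the dye orientation in this difference was not tested. The fitted difference was -0.74 ± 0.35 (SE), with a limma adjusted p of 0.999456. A1B14 followed at -0.57, and A6E22 and A4C9 had 0.45 and 0.42, with the same adjusted p in limma. A4C9 had 2 silica values, 0.023 and 0.049, and ZnO NP values of -1.67, -0.28, 0.35 and 0.40. P4DE5 had -0.28, -0.06 and -0.11 under SiO2 NP and 0.28, 0.50 and 0.71 under ZnSO4, with no overlap. Its fitted difference was -0.65 ± 0.27 (SE), with a limma adjusted p of 0.99987. A7A19 followed at -0.59, and P1BB3 and A2A1 had 0.48 each, with the same adjusted p in limma. A2A1 had 1.21, -0.03 and 0.0055 under SiO2 NP, so 1 exposure lay far above the others. For P1BB3, silica exposures 1 and 2 were valued on Cy5 arrays alone, and the sign of its ZnSO4 arrays followed the dye.

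The selection rule was also applied to the 3 groups at 1/10 LC50. It found 259 probes, 151 positive and 108 negative. Among probes with enough values at both levels there were 132 members and 208 probes of the lower list, and 10 were in both. These 10 are 7.58% of the members, where 4.04% of all such probes were in the lower list, and 4.81% of the lower list, where 2.56% of all such probes were members. Of the 10, 1 had the same sign at both levels and 9 had opposite signs. How often other probes of the lower list had opposite signs was not counted, so nothing particular to the members is read from this.

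Members followed the dye orientation of the arrays at 1/10 LC50. On the 8 arrays with exposed RNA in Cy5, the positive members' median was above 0 on 8, at 0.17 ± 0.13 (mean ± SD over arrays), with a range from 0.043 to 0.39. On the 10 arrays with exposed RNA in Cy3 it was above 0 on 1, at -0.10 ± 0.067, with a range from -0.22 to 0.0094. Positive members were thus positive in one orientation and mostly negative in the other, whichever toxicant the animals had met. The negative members' median was above 0 on 0 of 8 Cy5 arrays, at -0.11 ± 0.083, and on 10 of 10 Cy3 arrays, at 0.12 ± 0.073. The median of all probes averaged -0.011 ± 0.014 on the Cy5 arrays and 0.027 ± 0.039 on the Cy3 arrays. The average of a dye-swapped pair cancels such a component by construction, and all exposures of SiO2 NP and ZnSO4 at 1/10 LC50 were pairs.

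For each of the 8 pairs at 1/10 LC50, a dye component was computed per probe as the value with exposed RNA in Cy5 minus that with exposed RNA in Cy3, divided by 2. The name rests on ratios that were already turned to one direction. If the values were Cy5 over Cy3, the same quantity would be the ratio between exposed and unexposed animals, and the 2 readings cannot be told apart from the sources used here. Over the positive members its median was positive in 8 of 8 pairs, from 0.0075 to 0.23. Over the negative members it was negative in 8 of 8 pairs, from -0.18 to -0.056, and over all probes it lay between -0.049 and 0.015. Averaged over pairs, 50 of 58 positive members had a positive dye component (median 0.15) and 64 of 82 negative members a negative one (median -0.086), whereas 46.1% of all probes were positive. The share of all probes with one sign on both arrays of a pair was 38.5% to 54.5% at 1/10 LC50. At the LC25 it was 40.4% and 55.1% in the silica pairs, 63.8% and 73.0% under ZnO NP and 65.0% under ZnSO4. These shares were not used to choose between the 2 readings.

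A limma test of the mean dye component against 0, added after the data had been seen, called 10 of 58 positive members as positive, against 3.53% of 6572 probes tested. It called 7 of 82 negative members as negative, against 3.83% of probes tested, and 0 members in the opposite directions. P4DE8 was among them, at 0.30 ± 0.061 (SE, 8 pairs; limma adjusted p = 0.0297), and its Cy5 array was the higher one in 8 of 8 pairs. P4DF5 had 0.072 ± 0.051 (limma adjusted p = 0.377), and A7A19 -0.14 ± 0.070 (limma adjusted p = 0.217). These counts changed when single pairs were left out. Without exposure 1 of SiO2 NP or of ZnSO4, 0 members of either sign were called. The share of all probes called as positive was then 0.0924% and 0.0929%, and as negative 0% in both. Without ZnO NP exposure 1 or 2, the counts were 2 positive and 1 negative. Of all probes, 0.776% and 0.664% were then called as positive and 0.714% and 0.664% as negative. Without ZnSO4 exposure 2 the counts were 2 and 0 (0.586% and 0.524% of all probes). Without SiO2 NP exposure 2 they were 3 and 3 (0.847% and 0.878%). Without ZnSO4 exposure 3, 17 positive and 5 negative members were called, with 5.69% and 5.89% of all probes.

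Silica pairs at the LC25 differed from this in their direction, but their values chose the members. In exposure 1, the positive members valued on both arrays had medians of 0.31 with exposed RNA in Cy5 and 0.29 in Cy3, and the negative members -0.27 and -0.32. In exposure 3 the medians were 0.19 and 0.33 for positive and -0.29 and -0.39 for negative members. Both orientations thus had the chosen direction in both pairs. The dye component was also computed for all 5 pairs at the LC25, whose values took part in the choice. Its median was positive over positive members in 2 of 5 and negative over negative members in 2 of 5. In ZnO NP exposures 2 and 3 and ZnSO4 exposure 4, it was 0.025, -0.050 and -0.078 over positive members. Over negative members it was -0.13, 0.044 and -0.055 in the same order. The LC25 SiO2 NP group held 4 arrays with exposed RNA in Cy5 and 2 in Cy3, since exposures 2 and 4 were single Cy5 arrays. Both zinc groups at the LC25 also held 4 Cy5 and 2 Cy3 arrays, so this imbalance is not particular to silica. Over 5372 probes, the SiO2 NP median at the LC25 correlated with the dye component of the pairs at 1/10 LC50 at a Spearman rho of 0.304, against 0.0734 for the ZnO NP median and 0.0348 for that of ZnSO4. Probes on an array are not independent. When the dye component was subtracted from Cy5 arrays and added to Cy3 arrays before the choice, 75 of the 150 members were chosen again, a setting added after the data had been seen.

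Members were unevenly spread over the plates named in the probe identifiers. The identifiers give 7 larger plates (A1 to A7) and 52 smaller ones, 4 for each of P1 to P13, which makes 20 plate sets. Sets A1 to A7, P1 and P3 held 68 of the 91 negative and 2 of the 59 positive members, with 34.1% of all probes. Sets P4, P10, P11 and P12 held 34 positive and 4 negative members, with 26.4% of all probes. The members P4DF5, P4DE8 and P4DE5 named above are on plate P4D, which had 6 positive and 1 negative member. These 2 groups of sets were drawn after their values had been seen and are a description.

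The medians of the other probes also differed between plate sets. Under SiO2 NP at the LC25, the median of the probes that were no members ranged from -0.16 in set A4 to 0.15 in set P12. At 1/10 LC50 of SiO2 NP it ranged from -0.022 in set A3 to 0.035 in set P3. The range between the plate sets' medians was thus 0.32 at the higher silica level and 0.058 at the lower one. At the LC25 it was 0.26 under ZnO NP and 0.22 under ZnSO4, and at 1/10 LC50 it was 0.12 and 0.17, so a spread between sets was also present under zinc. Of the positive members, 56 of 59 had the sign of their own set's other probes, as did 72 of 91 negative members. Of the probes that were no members, 67.8% did. Members were chosen for large ratios, whereas the others had a median absolute ratio of 0.15. Probes of like size were not compared, so these shares do not show a link of the members to their sets beyond size. After the median of its set was subtracted from each member, the median absolute silica ratio was 0.30 in place of 0.39. After it, 145 of 150 members were still at 0.2 or above. The choice nearly fixed this count, since no member lay under 0.344691 and set medians reached only -0.16 and 0.15, so it is no test. When set medians were subtracted on every array before the choice, a setting added after the data had been seen, 52 of the 150 members were chosen again. Over the 20 sets, the silica median at the LC25 correlated with the dye component at 1/10 LC50 at a Pearson r of 0.725 and a Spearman rho of 0.699. The sets share arrays, and the coefficients are given as a description. They were not computed for the zinc groups. Under ZnO NP at the LC25, sets A1 to A7 also had negative medians, from -0.16 to -0.092. Sets P4, P10, P11 and P12 had positive ones there, from 0.075 to 0.10. Under ZnSO4 at the LC25 the signs were reversed, at 0.043 to 0.10 in A1 to A7 and -0.11 to -0.019 in these P sets.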

How the data were processed

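The authors deposited 1 log ratio per probe and array, read here as log2 values. The base, background correction, normalization, scanner and numerator are not given in the sources used here. Ratios of both dye orientations were read as having one direction already. Probes had values on 46.7% to 90.5% of positions per array, array medians lay between -0.075 and 0.11, and 0 pairs of arrays held identical values. The number of exposures and the missing values limit the precision. Each exposure number in the titles counts as 1 exposure, although the design text speaks of 3 per group. Whether exposures shared unexposed RNA is not given.

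Arrays of one exposure were averaged. All 6 groups were fitted in limma 3.58.1 (R 4.3.3) with a dye term of 1 or -1 for single arrays and 0 for pairs, on 5495 probes with values in at least 2 exposures of each group. A probe valued on 1 array of a pair kept its dye effect. All p-values are two-sided and adjusted after Benjamini and Hochberg over all probes tested, with a threshold of 0.05, and the scripts were tested on simulated data. Deviations of SiO2 NP and ZnSO4 exposures of equal number at 1/10 LC50 correlated at 0.107, 0.203 and 0.384. Each was higher than with the other ZnSO4 numbers, but the titles state no pairing of samples. With the exposure number as a replicate block, 0 probes were called in the comparison of these groups, as without it. Tables were handled in Python 3.11.15 with pandas 2.3.3.

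The members, the probes named and the alternatives were chosen with earlier results of these data known. Probes are named by size: the 2 largest of each sign in a comparison, by fitted value among the members tested, with one sign in every exposure for group ratios. Gene groups by function could not be counted because no probe has a gene name here.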

Additional observations from a re-analysis of the deposited data

Results flagged for a closer look

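Of 61 sets of 4 to 10 values (named members by group, and medians of the positive and negative members by group or dye), 2 held a value far from the others, and about 1 set in 20 does so by chance. P1BB3 had 0.70 in ZnSO4 exposure 1 at the LC25, where its other exposures lay between -0.21 and -0.02. P8BF5 had -0.37 in ZnO NP exposure 4 at 1/10 LC50, where its other exposures were all at -0.16. The 2 remaining results concern P4DE5 at 1/10 LC50, whose exposures were all negative under both particles and all positive under ZnSO4. Its mean was lower by 0.650172 log2 units under SiO2 NP than under ZnSO4 (a difference of -0.65; limma adjusted p = 0.99987). Under ZnO NP the difference from ZnSO4 was -0.85, which was not tested.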

How the results depend on the processing

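No member was called in any of 78 alternatives over the 5 comparisons at 1/10 LC50; the lowest adjusted p of a member was 0.179 (limma, ZnO NP). Counts over all probes changed for zinc. For ZnO NP, they were 19 with exposure as a random block, 30 with array quality weights, 1 from dye-swapped pairs alone, and 0 to 3 without 1 exposure. For ZnSO4, they were 12 and 6 in the first 2 settings, and 0 with arrays scaled to one spread, a robust prior, the lower groups alone, a replicate block, ratios read as Cy5 over Cy3, pairs alone, plate set medians subtracted, or without any 1 exposure (0 to 0). No other call changed under the replicate block; for SiO2 NP and ZnO NP, whose equal numbers correlated at 0.057, 0.14 and -0.14, the numbers are not shown to pair samples, and the block gave 0 calls.

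The choice itself varied more. Of the 150 members, 96 stayed with a cutoff of 0.15, 74 with 0.3, 73 with means, 99 with scaled arrays, 29 with ratios read as Cy5 over Cy3, 80 with a value required in every exposure (351 candidates), and 74 to 125 without 1 exposure (403 to 761 candidates). After the data had been seen, subtracting plate set medians was added, which left 52, and subtracting the dye component, which left 75. Read as Cy5 over Cy3, the medians under SiO2 NP at 1/10 LC50 were 0.13 ± 0.086 (SD, n = 3) in positive and -0.10 ± 0.062 in negative members. Those members were chosen with ratios read as already turned to one direction. Dye component calls were 5 positive and 4 negative members after subtraction of plate set medians (3.01% and 2.13% of all probes). With scaled arrays they were 16 and 14 (6.03% and 7.06% of all probes). Without 1 pair they were 0 to 17 and 0 to 10 (0.0924% to 5.69% and 0% to 5.89% of all probes). The causes were not tested. Exposures numbering 3 to 5 per group and missing values limit all of these results.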
